A study of Mus musculus with 18 samples.

Results

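Chemokines are small secreted proteins that steer the migration of leukocytes, and they act through G protein-coupled receptors on those cells or are taken up by atypical receptors that scavenge them. They were followed here in mouse liver after myocardial infarction (MI). Members were all genes whose symbol consists of one of the family stems Ccl, Cxcl, Xcl, Cx3cl, Ccr, Cxcr, Cx3cr, Xcr or Ackr and a number. This gave 60 genes in the table of livers taken at 1 day (38 ligands and 22 receptors, of 50600 genes) and 56 genes in the table of livers taken at 12 h (36 ligands and 20 receptors, of 17127 genes), 61 in either. After a filter on low counts, 31 members remained for testing at 1 day (20 ligands and 11 receptors) and 24 at 12 h (17 ligands and 7 receptors). Pf4 and Ppbp, which encode platelet chemokines, carry other symbols and were counted with the platelet markers instead.

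RNA-seq was done on livers of male mice at postnatal week 12 on the C57BL/6 background after MI or a sham operation in groups of 3. In the MI mice a coronary artery was closed surgically. At 1 day there were HMRKO + MI, HMRKO + sham, LC + MI and LC + sham livers, and at 12 h C57 + MI and C57 + sham livers, in which only the operation differed by label. Both LC (littermate control) and HMRKO mice carried floxed alleles of the mineralocorticoid receptor gene (MR, Nr3c2), and HMRKO mice also carried Cre under the albumin promoter, which is active in hepatocytes, so that other liver cells keep the gene. The labels call the genotypes wild type and MR-/-. They name no operation for the MI livers at 1 day and give no time, both of which were taken from the description of the series. Nr3c2 was at 0.895, 1.10 and 0.913 CPM (counts scaled to the size of the library) in HMRKO + MI livers, 2.93, 3.76 and 2.55 CPM in HMRKO + sham livers, 3.56, 2.13 and 1.90 CPM in LC + MI livers and 5.599, 6.70 and 4.71 CPM in LC + sham livers. After either operation every HMRKO liver lay below every LC liver. Gene counts include any exons that Cre leaves in place and the RNA of other cells, so this level is a partial check only.

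Chemokine genes are a small part of the liver transcriptome. Hepatocytes, Kupffer cells (the resident macrophages), endothelial and stellate cells can release ligands, whereas most receptors mark the leukocytes that respond. Inflammatory ligands are switched on by cytokines through factors such as NF-κB, interferon regulatory factors and STAT proteins, and homeostatic ligands are made without such a stimulus. In whole liver, fewer cells of a type and less RNA per cell cannot be told apart.

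The 12 livers at 1 day had total counts of 19098704 to 28945526, of which the members took 0.0339% to 0.0537%. Hepatocyte markers summed to 42281 to 68272 CPM over these livers, far above the markers of every other cell type listed. The share of mitochondrially encoded counts, a sign of RNA and tissue quality, was 8.68% to 9.10% in HMRKO + MI livers and 10.1% to 15.6% in HMRKO + sham livers, while LC + MI livers had 10.9% to 18.9%, against 7.53% to 9.65% in LC + sham livers. It was thus lower after MI in HMRKO livers and higher after MI in LC livers, without overlap in either genotype, and its part in the results was not tested. LC + MI replicate 1 had the share of 18.9%, and results that change without it are marked. Neutrophil markers (10 genes, including S100a8, S100a9 and Ly6g) summed to 28.9 to 31.8 CPM in HMRKO + MI livers, 9.51 to 14.6 CPM in HMRKO + sham livers, 11.7 to 21.4 CPM in LC + MI livers and 4.78 to 13.8 CPM in LC + sham livers. Mpo was at 0 in HMRKO + MI livers, and 5 of the 10 genes passed the filter. Of these 5, Retnlg, S100a9 and S100a8 were higher in HMRKO + MI than in HMRKO + sham livers. Markers of T, B and NK lymphocytes (12 genes) summed to 1.06 to 1.90 CPM in HMRKO + MI livers, 3.52 to 5.75 CPM in HMRKO + sham livers, 2.21 to 2.73 CPM in LC + MI livers and 3.85 to 8.58 CPM in LC + sham livers, with Ncr1 at 0 in HMRKO + MI livers. Kupffer cell and macrophage markers (11 genes) summed to 107 to 199 CPM in HMRKO + MI livers and 154 to 229 CPM in HMRKO + sham livers, and to 158 to 176 CPM in LC + MI livers against 245 to 321 CPM in LC + sham livers. The part of these cells in the chemokine results was not tested.

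MI changed many more members in HMRKO livers than in LC livers, as it did genes overall. Genes counted as called had an adjusted p below 0.05 in edgeR's quasi-likelihood test (Benjamini-Hochberg, all genes tested) and differed more than 2-fold. In HMRKO + MI against HMRKO + sham, 4 of 31 members were higher (12.9%, against 9.06% of all genes tested) and 9 were lower (29.03%, against 11.4% of all genes tested). The median log2 fold change was -0.33 over the members and 0.01 over all genes. By role, 8 of the 20 ligands and 1 of the 11 receptors were lower, and 3 ligands and 1 receptor were higher. In LC + MI against LC + sham, 1 member was higher (3.23%, against 1.44% of all genes) and 1 was lower (3.23%, against 1.04% of all genes), with a median log2 fold change of -0.22 over the members and 0.01 over all genes. A call in one genotype and none in the other does not by itself show a difference between them, and that difference has its own test further on.

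**Figure D1:**
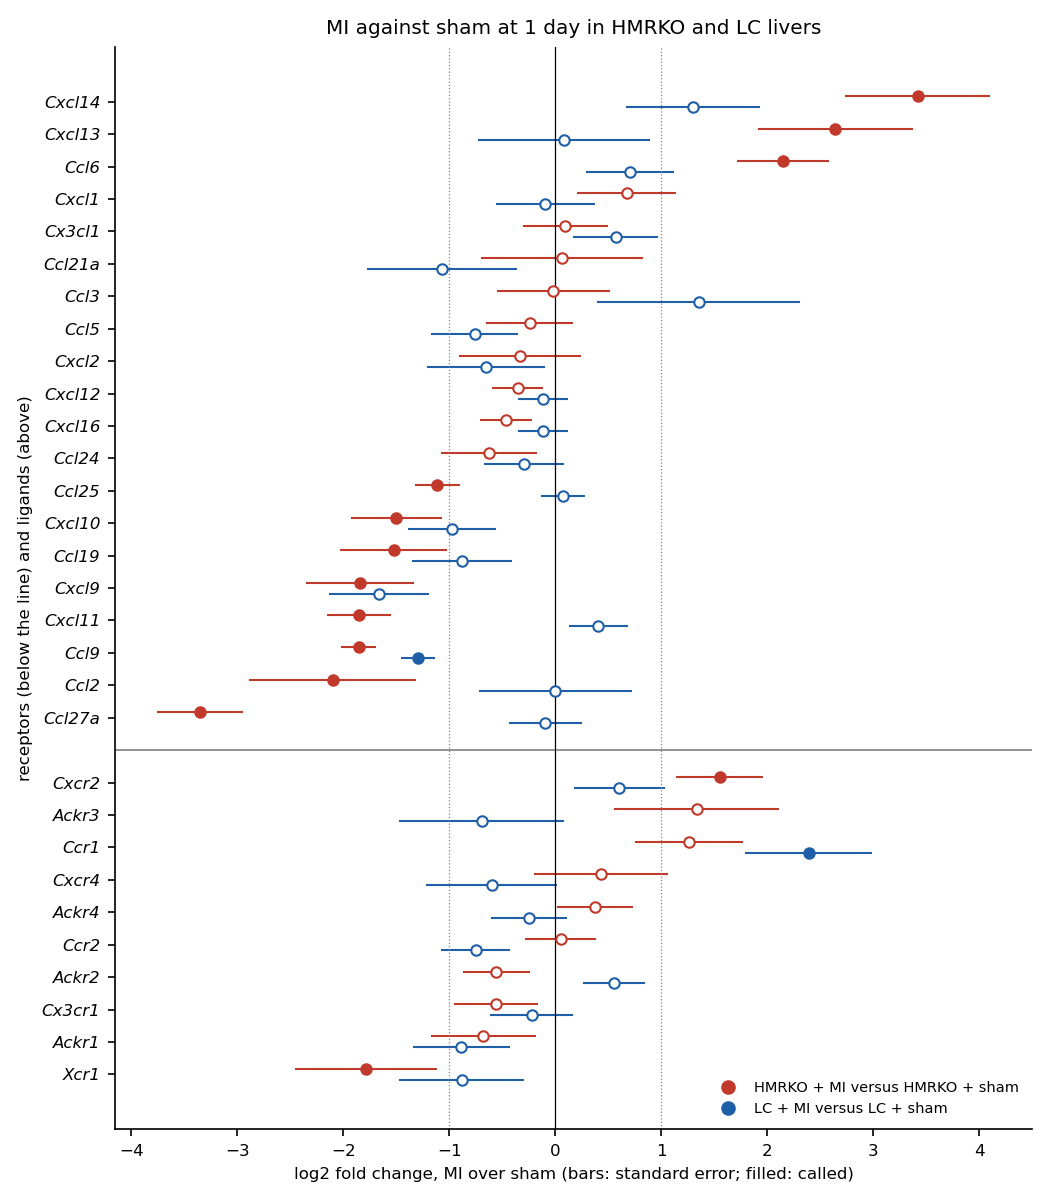
Log2 fold change of MI over sham at 1 day for 30 of the 31 tested members in HMRKO livers (red) and LC livers (blue), with ligands above the line and receptors below it, bars for the standard error and filled points for called members. The red points of Ccl27a and Cxcl11 lie far left of the blue ones, while Ccl9 and Cxcl9 lie left of 0 in both genotypes.

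Ccl9 was the 1 member called lower in both genotypes. It encodes a rodent CC chemokine that acts on the receptor Ccr1. Its level was 9.79, 10.8 and 7.87 CPM in HMRKO + MI livers, 36.1, 30.9 and 36.2 CPM in HMRKO + sham livers, 20.8, 14.1 and 19.03 CPM in LC + MI livers and 43.4, 46.4 and 42.5 CPM in LC + sham livers. The MI and sham livers of each genotype did not overlap, and the 4 groups stood in separate ranges. Ccl9 was 3.62-fold lower after MI in HMRKO livers (log2 fold change -1.85 ± 0.17 (SE), adjusted p = 1.53e-05, edgeR) and 2.45-fold lower in LC livers (log2 fold change -1.30 ± 0.16, adjusted p = 0.00151, edgeR). Both calls held in all 19 alternative analyses. HMRKO + MI livers were also below LC + MI livers (log2 fold change -0.92 ± 0.16, adjusted p = 0.00243, edgeR), a difference under the 2-fold threshold for a call. The difference in the change between HMRKO and LC livers did not pass the test of the interaction (log2 difference -0.56 ± 0.23, adjusted p = 0.106, edgeR).

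Ccl27a, a ligand of Ccr10 best known from skin, had the widest change of the members lowered in HMRKO livers. There were 1.57, 1.86 and 1.88 CPM in HMRKO + MI livers, 17.6, 21.0 and 16.02 CPM in HMRKO + sham livers, 25.9, 9.41 and 10.4 CPM in LC + MI livers and 20.6, 9.77 and 18.2 CPM in LC + sham livers. The HMRKO + MI livers lay together far below all others, while LC + MI and LC + sham livers overlapped. The gene was 10.2-fold lower in HMRKO + MI than in HMRKO + sham livers (log2 fold change -3.35 ± 0.41, adjusted p = 8.15e-05, edgeR) and was not called between LC + MI and LC + sham livers (log2 fold change -0.09 ± 0.34, adjusted p = 0.912, edgeR). In mouse the gene lies across Il11ra1, an interleukin-11 receptor gene on the opposite strand, and has a near copy, Ccl27b, which had 0 counts in all 12 livers. Il11ra1 was also lower in HMRKO + MI than in HMRKO + sham livers (log2 fold change -1.13 ± 0.19, adjusted p = 0.000549, edgeR). The strand setting of the counting is not given, so reads of this pair cannot be told apart.

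The 250 bases before the RefSeq start sites (build GRCm38.p6) of Ccl9 and of Ccl27a are shown because these were the called members with the smallest p for MI in HMRKO livers. Capitals mark matches on either strand to the NF-κB consensus, the AP-1 motif TGANTCA, the interferon response motif GAAANNGAA, the STAT motif TTCNNNGAA or ACANNNTGT, the core of the element bound by steroid receptors such as MR. Ccl9 lies at chr11:83578637-83578886, minus strand, and 1 of 3 start sites of Ccl27a at chr4:41770213-41770462, minus strand.
Ccl9: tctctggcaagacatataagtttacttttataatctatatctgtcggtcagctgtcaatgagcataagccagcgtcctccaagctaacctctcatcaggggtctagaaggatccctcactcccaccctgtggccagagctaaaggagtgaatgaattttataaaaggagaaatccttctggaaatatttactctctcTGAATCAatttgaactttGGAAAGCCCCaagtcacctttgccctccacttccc
Ccl27a: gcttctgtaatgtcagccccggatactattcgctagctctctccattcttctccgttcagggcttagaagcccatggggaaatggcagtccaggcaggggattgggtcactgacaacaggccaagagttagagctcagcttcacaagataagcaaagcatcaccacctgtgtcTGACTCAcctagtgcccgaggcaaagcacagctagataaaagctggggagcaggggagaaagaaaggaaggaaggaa
In Ccl9 the capitals are an AP-1 match that begins 53 bases before the start and an NF-κB match that begins 35 bases before it. In Ccl27a they are an AP-1 match that begins 77 bases before the start. Neither window held the steroid receptor core. Over the 25 start sites listed for 22 of the 26 members called in any comparison, 4 windows held the NF-κB consensus (16%, against 5% of all 32851 windows), 5 the interferon motif (20%, against 7.13%), 4 the AP-1 motif (16%, against 6.75%), 1 the STAT motif (4%, against 7.02%) and 1 the steroid receptor core (4%, against 5.84%). Windows of members that were not called were not counted apart, so these shares do not set called members apart from their family. A match describes letters, not binding.

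The Cxcr3 ligands Cxcl9, Cxcl10 and Cxcl11, interferon-inducible attractants of activated T and NK cells, were all lower after MI in HMRKO livers. Cxcl11 was at 1.68, 2.23 and 2.89 CPM in HMRKO + MI livers, 5.91, 9.68 and 8.997 CPM in HMRKO + sham livers, 11.0, 5.39 and 7.16 CPM in LC + MI livers and 7.25, 5.44 and 5.01 CPM in LC + sham livers. Again the HMRKO + MI livers alone stood below the rest. Cxcl11 was 3.60-fold lower in HMRKO + MI than in HMRKO + sham livers (log2 fold change -1.85 ± 0.30, adjusted p = 0.000541, edgeR), against a log2 fold change of 0.41 ± 0.28 (adjusted p = 0.436, edgeR) in LC livers. On the C57BL/6 background Cxcl11 is known to carry a shifted reading frame, so its RNA is not expected to give the protein.

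Cxcl9 was at 0.224, 0.986 and 1.62 CPM in HMRKO + MI livers, 3.73, 2.31 and 4.26 CPM in HMRKO + sham livers, 1.15, 2.09 and 1.87 CPM in LC + MI livers and 6.78, 6.81 and 2.76 CPM in LC + sham livers. In each genotype all MI livers were below all sham livers. It was 3.58-fold lower in HMRKO livers (log2 fold change -1.84 ± 0.51, adjusted p = 0.0110, edgeR), with a log2 fold change of -1.66 ± 0.47 in LC livers that missed the threshold (adjusted p = 0.0610, edgeR; 0.00956 with DESeq2). The interaction was near 0 for Cxcl9 (log2 difference -0.18 ± 0.68, adjusted p = 0.881, edgeR).

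Cxcl10 was at 0.447, 0.949 and 0.710 CPM in HMRKO + MI livers, 3.18, 0.915 and 1.97 CPM in HMRKO + sham livers, 1.00, 0.844 and 1.00 CPM in LC + MI livers and 2.48, 1.78 and 1.34 CPM in LC + sham livers. HMRKO + sham replicate 2 reached down into the MI range. The gene was 2.82-fold lower in HMRKO + MI than in HMRKO + sham livers (log2 fold change -1.50 ± 0.43, adjusted p = 0.0138, edgeR), a call lost without HMRKO + sham replicate 1 (adjusted p = 0.0814, edgeR) and without HMRKO + MI replicate 1 (adjusted p = 0.0525, edgeR). In LC livers the log2 fold change was -0.97 ± 0.41 (adjusted p = 0.193, edgeR). Cxcl10 and Cxcl11 overlap Art3 on the opposite strand, which was not called in any comparison at 1 day. Their receptor Cxcr3 had 72 counts over the 12 livers and was not tested. The sums of lymphocyte markers given above were lower in MI than in sham livers of both genotypes without overlap, and their part was not tested.

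The windows before Cxcl10 and Cxcl9, chosen after their values were seen, are set side by side since these genes lie close together on mouse chromosome 5 and were both called lower in HMRKO livers (GRCm38.p6, Cxcl10 at chr5:92348890-92349139, minus strand, Cxcl9 at chr5:92328080-92328329, minus strand). The table used has no entry for Cxcl11.
Cxcl10: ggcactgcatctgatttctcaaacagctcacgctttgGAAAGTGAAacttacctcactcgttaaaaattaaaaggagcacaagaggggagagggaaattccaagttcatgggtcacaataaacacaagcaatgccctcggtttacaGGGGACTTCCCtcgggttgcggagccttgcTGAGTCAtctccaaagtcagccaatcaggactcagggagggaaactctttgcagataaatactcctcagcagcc
Cxcl9: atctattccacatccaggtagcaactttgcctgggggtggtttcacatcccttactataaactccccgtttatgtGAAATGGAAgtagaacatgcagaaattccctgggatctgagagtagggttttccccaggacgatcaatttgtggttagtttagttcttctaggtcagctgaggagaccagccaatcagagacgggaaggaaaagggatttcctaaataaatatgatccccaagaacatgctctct
In Cxcl10 the capitals are, in order, the interferon match GAAAGTGAA at 213 bases before the start, overlapping NF-κB matches from 104 bases before it, and an AP-1 match at 74 bases. In Cxcl9 they are the interferon match GAAATGGAA at 175 bases. Among the genes that drive such ligands (25 listed, 20 tested), 2 were higher and 3 lower in HMRKO + MI than in HMRKO + sham livers, where 9.06% of all genes were higher and 11.4% lower, so the counts are near the background. Irf7 and Irf1, both interferon regulatory factors, were lower (log2 fold changes -1.80 ± 0.21 and -1.19 ± 0.19, adjusted p = 6.96e-05 and 0.000489, edgeR). Il1r1, the interleukin-1 receptor, and Tnfrsf1a, a receptor of TNF, were higher (log2 fold changes 3.24 ± 0.51 and 1.14 ± 0.12, adjusted p = 0.000397 and 3.68e-05, edgeR). The median log2 fold change over the 20 was -0.37 in HMRKO livers and -0.04 in LC livers.

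Of the homeostatic ligands, Ccl25, which guides thymocytes and gut-homing T cells through Ccr9, was low in HMRKO + MI livers alone. It was at 2.63, 2.48 and 3.60 CPM in HMRKO + MI livers, 5.82, 7.08 and 5.92 CPM in HMRKO + sham livers, 6.91, 4.95 and 5.81 CPM in LC + MI livers and 5.599, 4.55 and 6.61 CPM in LC + sham livers. The HMRKO + MI range did not reach that of any other group. Ccl25 was 2.16-fold lower in HMRKO + MI than in HMRKO + sham livers (log2 fold change -1.11 ± 0.21, adjusted p = 0.00137, edgeR), a call that held in all 19 alternatives. It overlaps Elavl1 on the opposite strand, whose log2 fold change there was 0.12 ± 0.14 (adjusted p = 0.498, edgeR).

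Cxcl14, a homeostatic chemokine of epithelia, was the member raised most in HMRKO livers. It was at 9.12, 25.6 and 5.48 CPM in HMRKO + MI livers, 1.89, 0.530 and 1.32 CPM in HMRKO + sham livers, 5.36, 10.2 and 2.39 CPM in LC + MI livers and 1.15, 2.70 and 3.40 CPM in LC + sham livers. All HMRKO + MI livers were above all HMRKO + sham livers, with a wide spread, and LC + MI overlapped LC + sham. Cxcl14 was 10.7-fold higher in HMRKO + MI than in HMRKO + sham livers (log2 fold change 3.42 ± 0.68, adjusted p = 0.00179, edgeR). Without HMRKO + MI replicate 2, the highest, the log2 fold change was 2.53 and the call held. In LC livers the log2 fold change was 1.30 ± 0.63 (adjusted p = 0.249, edgeR), and the interaction did not pass (log2 difference 2.12 ± 0.92, adjusted p = 0.126, edgeR).

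Cxcl13, the attractant of B cells through Cxcr5, was at 1.23, 4.53 and 9.39 CPM in HMRKO + MI livers, 0.419, 1.73 and 0.307 CPM in HMRKO + sham livers, 0.150, 0.603 and 1.00 CPM in LC + MI livers and 0.502, 0.555 and 0.672 CPM in LC + sham livers. HMRKO + MI livers spread widely and overlapped HMRKO + sham livers, but all were above every LC liver. It was 6.24-fold higher in HMRKO + MI than in HMRKO + sham livers (log2 fold change 2.64 ± 0.73, adjusted p = 0.0111, edgeR). Without HMRKO + MI replicate 3, the highest, the log2 fold change was 1.85 and that call was lost (adjusted p = 0.0643, edgeR), and without HMRKO + sham replicate 2 it was 3.77.

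Ccl19, which draws dendritic cells and naive T cells through Ccr7, was at 0.839, 0.329 and 0.355 CPM in HMRKO + MI livers against 2.14, 0.674 and 1.45 CPM in HMRKO + sham livers. The groups overlapped, and the 2.88-fold lower level after MI (log2 fold change -1.52 ± 0.50, adjusted p = 0.0264, edgeR) lost its call without replicate 1 or 3 of HMRKO + sham, and without replicate 2 or 3 of HMRKO + MI (adjusted p = 0.0559 to 0.124, edgeR). In LC livers Ccl19 was at 0.801, 0.925 and 0.519 CPM after MI and 1.76, 1.52 and 0.822 CPM after sham (adjusted p = 0.307, edgeR).

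Among the ligands of Ccr1, Ccl6 and Ccl3 differed from Ccl9 in direction or in pattern. Ccl6, a rodent chemokine of macrophages and granulocytes, was at 6.88, 8.84 and 6.14 CPM in HMRKO + MI livers, 1.72, 0.771 and 2.41 CPM in HMRKO + sham livers, 2.76, 5.47 and 3.63 CPM in LC + MI livers and 1.11, 3.48 and 2.69 CPM in LC + sham livers. Every HMRKO + MI liver was above every other liver. It was 4.43-fold higher in HMRKO + MI than in HMRKO + sham livers (log2 fold change 2.15 ± 0.43, adjusted p = 0.00181, edgeR), a call that held in all 19 alternatives, against a log2 fold change of 0.71 ± 0.41 in LC livers (adjusted p = 0.350, edgeR).

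Ccl3, macrophage inflammatory protein 1 alpha, separated the genotypes after both operations. Its counts were 8, 34 and 23 in HMRKO + MI livers, 22, 20 and 24 in HMRKO + sham livers, 0, 6 and 4 in LC + MI livers and 0, 2 and 2 in LC + sham livers. All 6 HMRKO livers were above all 6 LC livers. Ccl3 was 7.01-fold higher in HMRKO + MI than in LC + MI livers (log2 fold change 2.81 ± 0.66, adjusted p = 0.00837, edgeR). Between the sham groups the log2 fold change was 4.18 ± 0.76, which was not called (adjusted p = 0.125, edgeR) but was with no filter beyond 1 count (adjusted p = 0.00149, edgeR) and without LC + MI replicate 1 (adjusted p = 0.0328, edgeR). Without LC + MI replicate 2 the log2 fold change between the MI groups was 3.52. MI and sham HMRKO livers overlapped (log2 fold change -0.02 ± 0.53, adjusted p = 0.979, edgeR). The related Ccl5 did not pass in any comparison at 1 day, and Ccl4 had 74 counts over the 12 livers and was not tested.

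Ccr1, the receptor of these ligands on monocytes and neutrophils, had few counts. There were 10, 16 and 11 counts in HMRKO + MI livers, 8, 1 and 7 in HMRKO + sham livers, 8, 11 and 11 in LC + MI livers and 1, 3 and 2 in LC + sham livers. The MI livers of each genotype were above its sham livers. It was the 1 member called higher in LC livers (5.24-fold, log2 fold change 2.39 ± 0.60, adjusted p = 0.0395, edgeR), and this call was lost without any 1 of 11 of the 12 livers (adjusted p = 0.0503 to 0.119, edgeR) and with the replicate block (adjusted p = 0.0645, edgeR). In HMRKO livers the log2 fold change was 1.26 ± 0.51 (adjusted p = 0.0611, edgeR). Monocyte markers (6 genes, of which 3 were tested) summed to 5.87 to 8.36 CPM in HMRKO + MI livers and 2.94 to 4.65 CPM in HMRKO + sham livers, with 3.96 to 7.599 CPM in LC + MI livers, against 4.67 to 6.96 CPM in LC + sham livers, and their part was not tested.

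Cxcr2, the receptor through which neutrophils follow Cxcl1 and Cxcl2, was higher in HMRKO + MI livers. Its counts were 27, 22 and 15 in HMRKO + MI livers, 8, 9 and 6 in HMRKO + sham livers, 8, 15 and 10 in LC + MI livers and 9, 9 and 6 in LC + sham livers. On the CPM scale every HMRKO + MI liver was above every other liver. Cxcr2 was 2.93-fold higher in HMRKO + MI than in HMRKO + sham livers (log2 fold change 1.55 ± 0.41, adjusted p = 0.00885, edgeR), with neutrophil marker sums that separated the same groups. The part of neutrophil number was not tested.

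The ligands of Cxcr2 were not called at 1 day. Cxcl1, which hepatocytes make in acute inflammation, was at 264, 296 and 276 CPM in HMRKO + MI livers, 151, 270 and 103 CPM in HMRKO + sham livers, 171, 118 and 99.2 CPM in LC + MI livers and 156, 217 and 41.0 CPM in LC + sham livers. HMRKO + MI livers were even and above LC + MI livers, and sham livers spread widely. The log2 fold change was 0.68 ± 0.47 for MI over sham in HMRKO livers (adjusted p = 0.258, edgeR), -0.09 ± 0.47 in LC livers (adjusted p = 0.936, edgeR) and 1.11 ± 0.47 for HMRKO + MI over LC + MI (adjusted p = 0.0888, edgeR). Cxcl2 had 1 to 18 counts per liver and was not called.

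Ccl2, the main attractant of monocytes through Ccr2, was called lower in HMRKO + MI than in HMRKO + sham livers, with 1 HMRKO + sham liver far above the rest. Its counts were 4, 9 and 4 in HMRKO + MI livers and 63, 6 and 9 in HMRKO + sham livers. Without HMRKO + sham replicate 1 the log2 fold change moved to -0.41, against -2.10 ± 0.79 with it (adjusted p = 0.631 and 0.0453, edgeR), and the call was lost in 8 of 18 alternatives. Ccr2 was at 0.839, 1.02 and 1.01 CPM in HMRKO + MI livers, 0.922, 0.674 and 1.18 CPM in HMRKO + sham livers, 0.952, 0.684 and 0.727 CPM in LC + MI livers and 1.72, 1.33 and 0.897 CPM in LC + sham livers, and was not called.

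Xcr1, a receptor of the dendritic cells that cross-present antigen, had 0, 8 and 3 counts in HMRKO + MI livers, 16, 8 and 15 in HMRKO + sham livers, 10, 9 and 4 in LC + MI livers and 21, 16 and 12 in LC + sham livers. As CPM the HMRKO + MI livers were below the HMRKO + sham livers (3.45-fold, log2 fold change -1.79 ± 0.67, adjusted p = 0.0454, edgeR). Leaving out a single liver ended this call in 8 of 12 cases (adjusted p = 0.0513 to 0.111, edgeR), and without HMRKO + MI replicate 2 the log2 fold change was -2.78. The dendritic cell markers, 6 genes that include Xcr1 and Ccr7 themselves, summed to 5.63 to 9.45 CPM in HMRKO + MI livers and 7.12 to 7.95 CPM in HMRKO + sham livers, and their part was not tested.

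**Figure D2:**
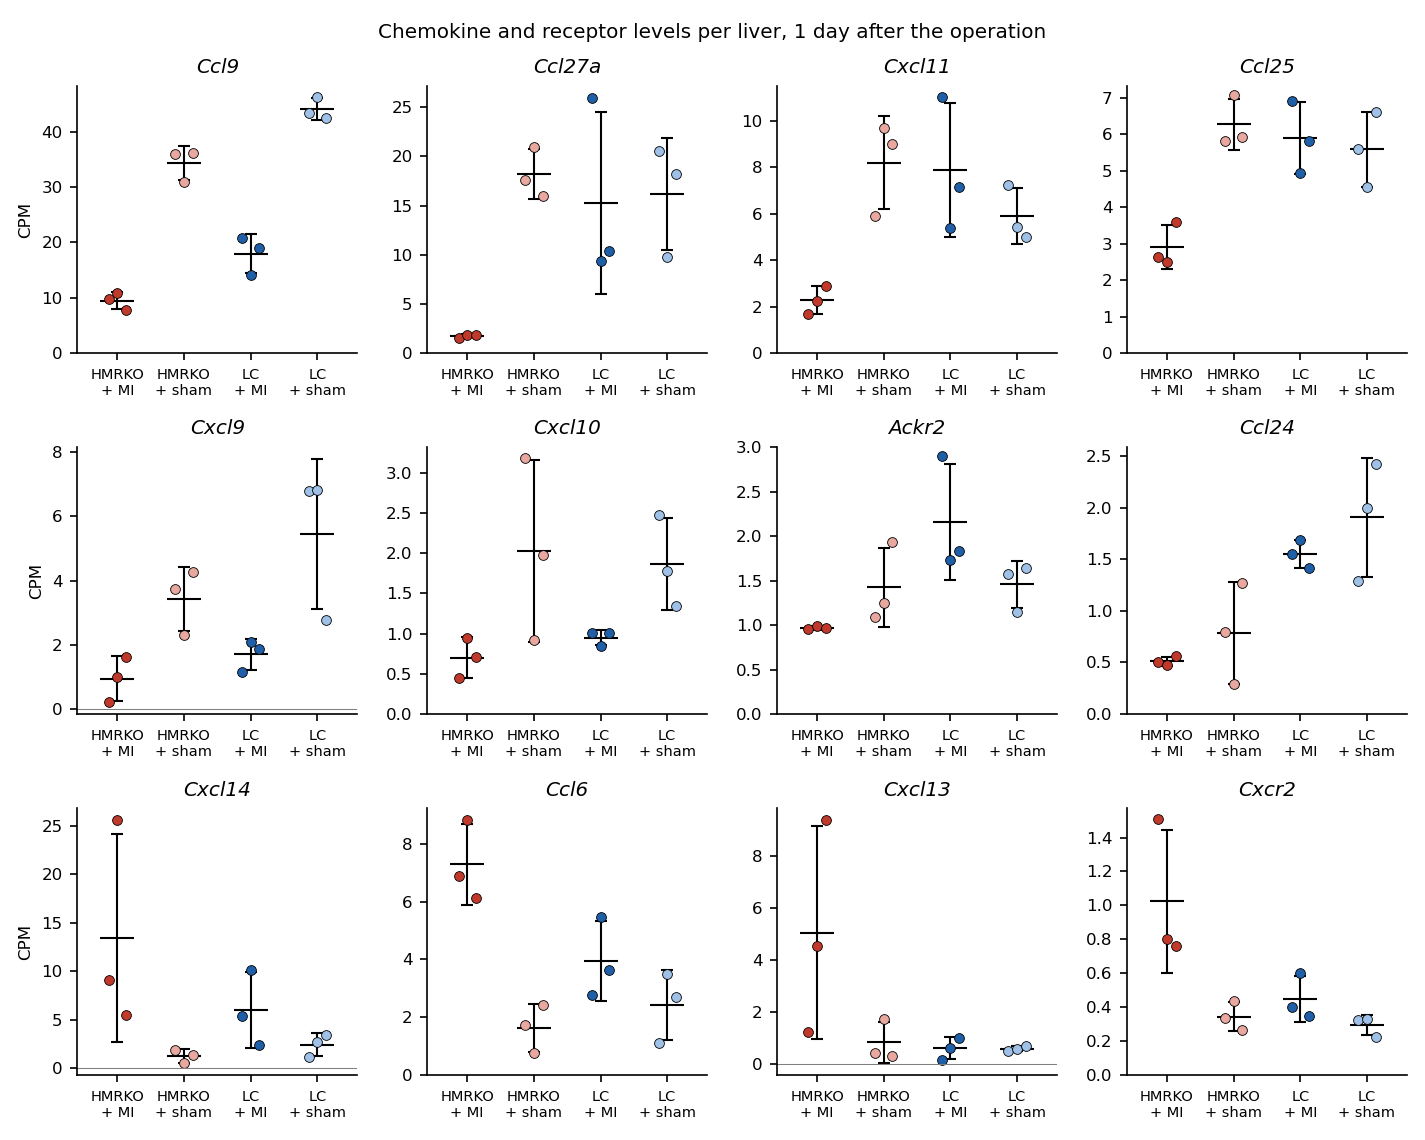
CPM of 12 members in each liver at 1 day (points), with the mean and SD of each group of 3 (lines), from HMRKO + MI on the left to LC + sham on the right. Ccl27a, Cxcl11 and Ccl25 are low in the HMRKO + MI livers alone, Ccl9 is low in both MI groups, and Ccl6 and Cxcr2 are highest in HMRKO + MI livers.

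The comparison of the genotypes after MI shares its HMRKO + MI livers with the comparison above. In HMRKO + MI against LC + MI, 3 of 31 members were higher (9.68%, against 4.58% of all genes tested) and 5 were lower (16.1%, against 7.77% of all genes tested). The median log2 fold change was -0.18 over the members and -0.01 over all genes. The members that were lower were Ccl27a (log2 fold change -3.09 ± 0.40, adjusted p = 0.000661, edgeR), Cxcl11 (-1.78 ± 0.30, 0.00197), Ccl25 (-1.02 ± 0.21, 0.00467), Ackr2 and Ccl24. Those that were higher were Ccl3, Cxcl13 (log2 fold change 3.04 ± 0.75, adjusted p = 0.00996, edgeR) and Cxcr2 (log2 fold change 1.16 ± 0.39, adjusted p = 0.0409, edgeR). Without LC + MI replicate 1 the log2 fold change of Ccl27a was -2.48, and both genes stayed called, with Cxcl13 at 2.26 once HMRKO + MI replicate 3 was left out and at 3.68 once LC + MI replicate 3 was. The call for Cxcr2 was lost in 11 of 19 alternatives, among them DESeq2 (adjusted p = 0.0539) and the fit without LC + MI replicate 1 (adjusted p = 0.114, edgeR).

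Ackr2, an atypical receptor that removes inflammatory CC chemokines, was at 0.951, 0.986 and 0.964 CPM in HMRKO + MI livers, 1.09, 1.25 and 1.93 CPM in HMRKO + sham livers, 2.91, 1.73 and 1.83 CPM in LC + MI livers and 1.58, 1.15 and 1.64 CPM in LC + sham livers. In HMRKO livers all MI values were below all sham values, and in LC livers all were above. Between the MI groups Ackr2 was 2.21-fold lower in HMRKO + MI livers (log2 fold change -1.14 ± 0.31, adjusted p = 0.0152, edgeR). Without LC + MI replicate 1, which has the high mitochondrial share, the log2 fold change was -0.88 and the call was lost (adjusted p = 0.0669, edgeR). Without that liver 3 members were called lower, since Ccl25 also came under the 2-fold threshold (log2 fold change -0.89, adjusted p = 0.0196, edgeR). Ccl25 did so as well without HMRKO + MI replicate 1 (-0.96) or HMRKO + MI replicate 2 (-0.91).

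Ccl24, an attractant of eosinophils through Ccr3, had its higher values in LC livers. It was at 0.503, 0.475 and 0.558 CPM in HMRKO + MI livers, 0.796, 0.289 and 1.27 CPM in HMRKO + sham livers, 1.55, 1.69 and 1.42 CPM in LC + MI livers and 1.29, 1.999 and 2.43 CPM in LC + sham livers. All HMRKO livers were below all LC livers, though HMRKO + sham replicate 3 nearly reached LC + sham replicate 1. The difference was called after MI (3.02-fold, log2 fold change -1.60 ± 0.43, adjusted p = 0.0156, edgeR) and not after sham (log2 fold change -1.26 ± 0.40, adjusted p = 0.586, edgeR). The call after MI was lost without HMRKO + MI replicate 2 (adjusted p = 0.0538, edgeR). Its receptor Ccr3 had 18 counts over the 12 livers.

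Between the sham groups, 0 of 31 members were called by edgeR or by DESeq2. At an unadjusted p under 0.05 with edgeR there were 5 of the 31, against 838 of all 14266 genes tested. DESeq2 gave 9 of the 31 no adjusted p. Of all genes, 0.021% were called higher and 0.00701% lower in HMRKO + sham livers. Among the members of smallest p were Ccl3, Ccl24, Ccr1, Ccl9 and Ccl2, with adjusted p of 0.125 to 0.898 (edgeR). Ccl9 had all HMRKO + sham values below all LC + sham values (log2 fold change -0.36 ± 0.16).

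Whether MI acted differently in HMRKO and LC livers was tested by the interaction of genotype and operation. Of 31 members, 3 had a more negative change in HMRKO livers (9.68%, against 6.14% of all genes tested) and 0 a more positive one (against 3.96% of all genes), also with DESeq2. At an unadjusted p under 0.05 there were 8 of 31 members in either direction, against 4750 of all 14266 genes tested, the larger share (edgeR). The members called were Ccl27a (log2 difference -3.26 ± 0.53, adjusted p = 0.00629, edgeR), Cxcl11 (-2.25 ± 0.41, 0.00871) and Ccl25 (-1.19 ± 0.29, 0.0219). Ccl27a and Cxcl11 kept this call in all 18 alternatives, with Ccl27a at -2.65 without LC + MI replicate 1, and Ccl25 lost it without LC + sham replicate 2 or HMRKO + MI replicate 2 (adjusted p = 0.0544 and 0.0538, edgeR). All 3 are ligands, and their receptors Ccr10, Cxcr3 and Ccr9 had 35, 72 and 41 counts over the 12 livers and were not tested. Il11ra1, which overlaps Ccl27a, had an interaction of -1.18 ± 0.26 (adjusted p = 0.0141, edgeR). Of the 15 mitochondrially encoded genes, 6 had a negative interaction that was called (median log2 difference -1.25), and the part of this sign of quality was not tested.

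Genes around the chemokines were counted in the same way and are read against the same shares of all genes. These were 9.06% higher and 11.4% lower in HMRKO + MI against HMRKO + sham, and 3.96% and 6.14% in the interaction. The counts that follow are near or under these shares. Of 27 tested genes that act downstream of chemokine receptors, 1 was lower in HMRKO + MI than in HMRKO + sham livers, Rgs3, a regulator of G protein signalling (log2 fold change -1.58 ± 0.29, adjusted p = 0.00101, edgeR), and the median was -0.02. In LC livers their median log2 fold change was -0.21. Of 16 tested genes for the processing and presentation of chemokines, Mmp8 and Mmp9, metalloproteinases of neutrophil granules that cut chemokines, were higher in HMRKO + MI than in HMRKO + sham livers (log2 fold changes 4.44 ± 0.90 and 1.92 ± 0.41, adjusted p = 0.00193 and 0.00241, edgeR). Sdc2, a heparan sulfate proteoglycan, was lower (log2 fold change -1.05 ± 0.18, adjusted p = 0.000796, edgeR). In the interaction, 1 of the 20 tested genes that drive such ligands was higher, Il1r1 (log2 difference 2.73 ± 0.67, adjusted p = 0.0211, edgeR). Irf1 and Nfkb2 were the 2 that were lower (-1.23 ± 0.27 and -1.13 ± 0.29, adjusted p = 0.0141 and 0.0233, edgeR).

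The remaining tested members showed no call at 1 day. Among them were the ligands Cxcl1, Cxcl2, Cxcl12, Cxcl16, Cx3cl1, Ccl5 and Ccl21a and the receptors Ccr2, Cxcr4, Cx3cr1, Ackr1, Ackr3 and Ackr4. Cxcl12, the ligand of Cxcr4 and Ackr3, was even across groups at 105 to 175 CPM in HMRKO + MI livers, 144 to 251 CPM in HMRKO + sham livers, 142 to 202 CPM in LC + MI livers and 177 to 217 CPM in LC + sham livers. Of the 29 members that the filter removed, none had more than 74 counts over the 12 livers, and 5 (Ccl20, Ccl26, Ccl27b, Ccr4 and Ccr8) had 0, which allows up to 0.0105 CPM over the 286701807 counts of all livers.

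The 12 h livers were counted in another way and their groups differed in depth, so their values stand apart. C57 + MI libraries had 16745688 to 19190438 counts and C57 + sham libraries 1361564 to 2255837, a 9.60-fold difference of the means that coincides with the groups and cannot be told apart from the operation. Gm20594 took at most 0.0659% of the counts in C57 + MI libraries and 1.79% to 3.66% in C57 + sham libraries. In C57 + MI against C57 + sham, 25.5% of all genes tested were called higher and 26.7% lower, and the members' counts are read against these shares. Of 24 tested members, 3 were higher (12.5%) and 15 lower (62.5%). Without C57 + MI replicate 1 there were 9 lower, without C57 + MI replicate 3 there was 1 higher, and with the MI counts thinned to the sham depth 8 were lower. The median log2 fold change was -1.45 over the members and 0.11 over all genes. For 12 of the 24 members at least 1 estimated count was not whole, as happens when a counting program divides reads between genes or transcripts, and 11 of these 12 were lower (91.7%, against 38.1% of all such genes) and 0 higher (against 17.6%). Of the 12 with whole counts in all livers, 3 were higher (25%, against 31.3% of all such genes) and 4 lower (33.3%, against 18.3% of all such genes).

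Cxcl1 was the member raised most at 12 h. It was at 202, 316 and 344 TPM (a measure scaled to transcript length and library) in C57 + MI livers, against 18.0, 18.5 and 32.8 TPM in C57 + sham livers. The groups were far apart. Cxcl1 was 18.9-fold higher after MI on the count scale (log2 fold change 4.24 ± 0.32, adjusted p = 5.00e-06, edgeR), its estimated counts were whole, and the call held in all 16 alternatives (log2 fold changes 3.63 to 4.64). Among the members it had the largest TPM in each MI liver. The window before its start site, chosen after its values were seen, is shown for the match GGGAATTTCC to the NF-κB consensus (GRCm38.p6, chr5:90890995-90891244, plus strand).
Cxcl1: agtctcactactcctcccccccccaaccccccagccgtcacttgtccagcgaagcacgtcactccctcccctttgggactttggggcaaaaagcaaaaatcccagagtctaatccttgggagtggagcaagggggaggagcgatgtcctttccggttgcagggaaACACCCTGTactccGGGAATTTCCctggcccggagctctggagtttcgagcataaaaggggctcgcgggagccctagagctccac
The first capitals, ACACCCTGT, match the steroid receptor core 85 bases before the start and the second the NF-κB consensus 71 bases before it. Il1r1 and Tnfrsf1a, receptors of cytokines that act through NF-κB, were higher at 12 h (log2 fold changes 4.34 ± 0.33 and 2.89 ± 0.26, adjusted p = 5.00e-06 and 8.70e-06, edgeR), and Nfkbia and Irf7 were lower (-1.66 ± 0.18 and -2.62 ± 0.19, adjusted p = 2.86e-05 and 4.34e-06, edgeR). Of the 19 tested inducers, 10 were higher (against 25.5% of all genes) and 5 lower (against 26.7% of all genes, so near the background).

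Cxcl14 was at 3.42, 19.1 and 10.5 TPM in C57 + MI livers and 3.28, 1.15 and 1.66 TPM in C57 + sham livers. C57 + MI replicate 1 lay just above the highest sham liver. The log2 fold change was 3.10 ± 0.72 (adjusted p = 0.00310, edgeR), on 6, 3 and 5 counts in the sham libraries. Cxcl12 was at 41.0, 53.4 and 70.8 TPM in C57 + MI livers and 39.7, 27.4 and 34.4 TPM in C57 + sham livers, groups that nearly touched. Its log2 fold change of 1.24 ± 0.25 (adjusted p = 0.00139, edgeR) fell under the 2-fold threshold in 5 of 16 alternatives, at 0.68 on the log2(TPM + 0.5) scale, 0.68 on the log2(TPM + 0.1) scale, 0.98 with the MI counts thinned to the sham depth, 0.90 with whole-count genes only and 0.99 without C57 + MI replicate 3.

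The 4 members with whole counts that were lower at 12 h were all ligands. Ccl25 was at 1.56, 1.57 and 1.69 TPM in C57 + MI livers and 4.14, 8.68 and 6.36 TPM in C57 + sham livers (log2 fold change -1.48 ± 0.40, adjusted p = 0.00741, edgeR). Cx3cl1, the membrane-bound ligand of Cx3cr1, was at 0.220, 0.330 and 0.470 TPM in C57 + MI livers and 3.44, 1.09 and 1.52 TPM in C57 + sham livers (log2 fold change -1.85 ± 0.53, adjusted p = 0.00992, edgeR). Cxcl16, the ligand of Cxcr6, was at 1.15, 2.28 and 2.50 TPM in C57 + MI livers and 8.26, 5.78 and 9 TPM in C57 + sham livers (log2 fold change -1.11 ± 0.34, adjusted p = 0.0147, edgeR). These groups did not overlap. Ccl24 was at 0.630, 0.710 and 1.07 TPM in C57 + MI livers and 4.55, 2.17 and 2.07 TPM in C57 + sham livers (log2 fold change -1.24 ± 0.50, adjusted p = 0.0490, edgeR). Its groups did not overlap either, but the call was lost without any 1 of the C57 + sham livers (adjusted p = 0.0777 to 0.214, edgeR) and with DESeq2 (adjusted p = 0.0884). The call for Cxcl16 was lost without C57 + sham replicate 1 or replicate 3 (adjusted p = 0.0504 and 0.0557, edgeR) and without C57 + MI replicate 1 (log2 fold change -0.86). Cxcl16 overlaps Zmynd15 on the opposite strand, which was also lower (log2 fold change -3.42 ± 0.27, adjusted p = 5.71e-06, edgeR). Without C57 + sham replicate 1 the call for Cx3cl1 was lost (log2 fold change -1.27, adjusted p = 0.0763, edgeR), and without C57 + sham replicate 2 that for Ccl25 (adjusted p = 0.0601, edgeR).

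The largest falls at 12 h were among members whose estimated counts were not whole. Ccl27a was at 6.66, 3.26 and 4.63 TPM in C57 + MI livers and 324, 257 and 284 TPM in C57 + sham livers (log2 fold change -5.03 ± 0.24, adjusted p = 2.52e-06, edgeR). In the sham libraries that made it the member with the highest TPM. Cxcr2 was at 3.82, 2.85 and 2.61 TPM in C57 + MI livers and 52.6, 58.5 and 49.4 TPM in C57 + sham livers (log2 fold change -3.49 ± 0.22, adjusted p = 3.36e-06, edgeR). For both genes the estimated counts themselves were lower in the deeper C57 + MI libraries, at 149, 116 and 102 for Cxcr2 in C57 + MI livers against 163, 259 and 251 in C57 + sham livers. Xcr1 was at 0.420, 0.270 and 0.190 TPM in C57 + MI livers and 12.2, 15 and 8.15 TPM in C57 + sham livers (log2 fold change -4.69 ± 0.35, adjusted p = 4.76e-06, edgeR). Ackr4, which scavenges Ccl19, Ccl21 and Ccl25, was at 0.770, 0.460 and 0.410 TPM in C57 + MI livers and 12.1, 19.6 and 17.6 TPM in C57 + sham livers (log2 fold change -4.68 ± 0.37, adjusted p = 5.30e-06, edgeR). Cx3cr1, a receptor of patrolling monocytes, was at 0.050, 0.13 and 0.17 TPM in C57 + MI livers and 2.90, 3.42 and 2.92 TPM in C57 + sham livers (log2 fold change -3.98 ± 0.44, adjusted p = 2.84e-05, edgeR). As CPM, Cxcr2, Xcr1 and Ackr4 were far higher in C57 + sham livers than in any liver at 1 day. Cxcr2 was at 87.2 to 102 CPM, against 0.224 to 1.51 CPM at 1 day. Xcr1 was at 21.2 to 38.4 CPM, against 0 to 0.754 CPM, and Ackr4 at 38.3 to 59.3 CPM, against 0.482 to 1.17 CPM. The mice, time and counting differ as well, and the cause was not tested.

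Ccr4, a receptor of Th2 and regulatory T cells, had 0 counts in all 3 C57 + MI livers and 16.5, 32.3 and 14.3 estimated counts in C57 + sham livers. Set against the limit of 3 counts over the group, it was at least 126-fold lower after MI. At 1 day the same gene had 0 counts in all 12 livers at higher depth. Neutrophil markers summed to 53.4 to 140 TPM in C57 + MI livers and 58.7 to 92.4 TPM in C57 + sham livers, with Retnlg, Ly6g and S100a9 higher after MI and Csf3r lower. Dendritic cell markers summed to 1.99 to 3.64 TPM in C57 + MI livers and 17.4 to 26.0 TPM in C57 + sham livers. This sum includes Xcr1 itself, at 12.2, 15 and 8.15 TPM in C57 + sham livers, so it is no separate measure beside that member. Platelet markers summed to 2.93 to 3.91 TPM in C57 + MI livers and 22.2 to 44.4 TPM in C57 + sham livers. Lymphocyte markers (10 of 12 genes in the table) summed to 1.59 to 2.19 TPM in C57 + MI livers and 6.13 to 12.2 TPM in C57 + sham livers. Monocyte markers summed to 5.45 to 16.7 TPM in C57 + MI livers and 17.3 to 43.0 TPM in C57 + sham livers, stellate cell markers to 63.7 to 92.3 TPM in C57 + MI livers and 176 to 197 TPM in C57 + sham livers, and endothelial markers to 45.0 to 52.9 TPM in C57 + MI livers and 65.2 to 105 TPM in C57 + sham livers. Hepatocyte markers went the other way, at 48121 to 66539 TPM in C57 + MI livers and 36561 to 40395 TPM in C57 + sham livers, and 3 of the 6 genes were called higher. The part of cell numbers was not tested, and that of depth cannot be told apart from the operation.

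The other members called lower at 12 h were Ccl9, Cxcl9, Ccl19, Ccl21a and Ccl21b. Ccl9 was at 6.46, 8.27 and 9.78 TPM in C57 + MI livers and 20.2, 37.8 and 25.6 TPM in C57 + sham livers (log2 fold change -1.15 ± 0.25, adjusted p = 0.00204, edgeR). Cxcl9 was at 1.38, 0.880 and 1.25 TPM in C57 + MI livers and 7.62, 3.79 and 3.56 TPM in C57 + sham livers (log2 fold change -1.43 ± 0.39, adjusted p = 0.00750, edgeR). In both genes the groups did not overlap, and each dropped under the 2-fold threshold without 1 sham liver (Ccl9 at -0.84 without replicate 2, Cxcl9 at -0.96 without replicate 1). Ccl19 was at 0, 0.930 and 0.310 TPM in C57 + MI livers and 9.17, 6.13 and 4.46 TPM in C57 + sham livers (log2 fold change -3.08 ± 0.82, adjusted p = 0.00668, edgeR). Ccl21a and Ccl21b, near-identical copies of the Ccr7 ligand among which reads cannot be assigned with certainty, were lower by log2 fold changes of -1.73 ± 0.49 and -3.69 ± 1.09 (adjusted p = 0.00914 and 0.0119, edgeR). Without C57 + sham replicate 2 both calls were lost (log2 fold changes -1.02 and -2.29, adjusted p = 0.126 and 0.193, edgeR).

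**Figure D3:**
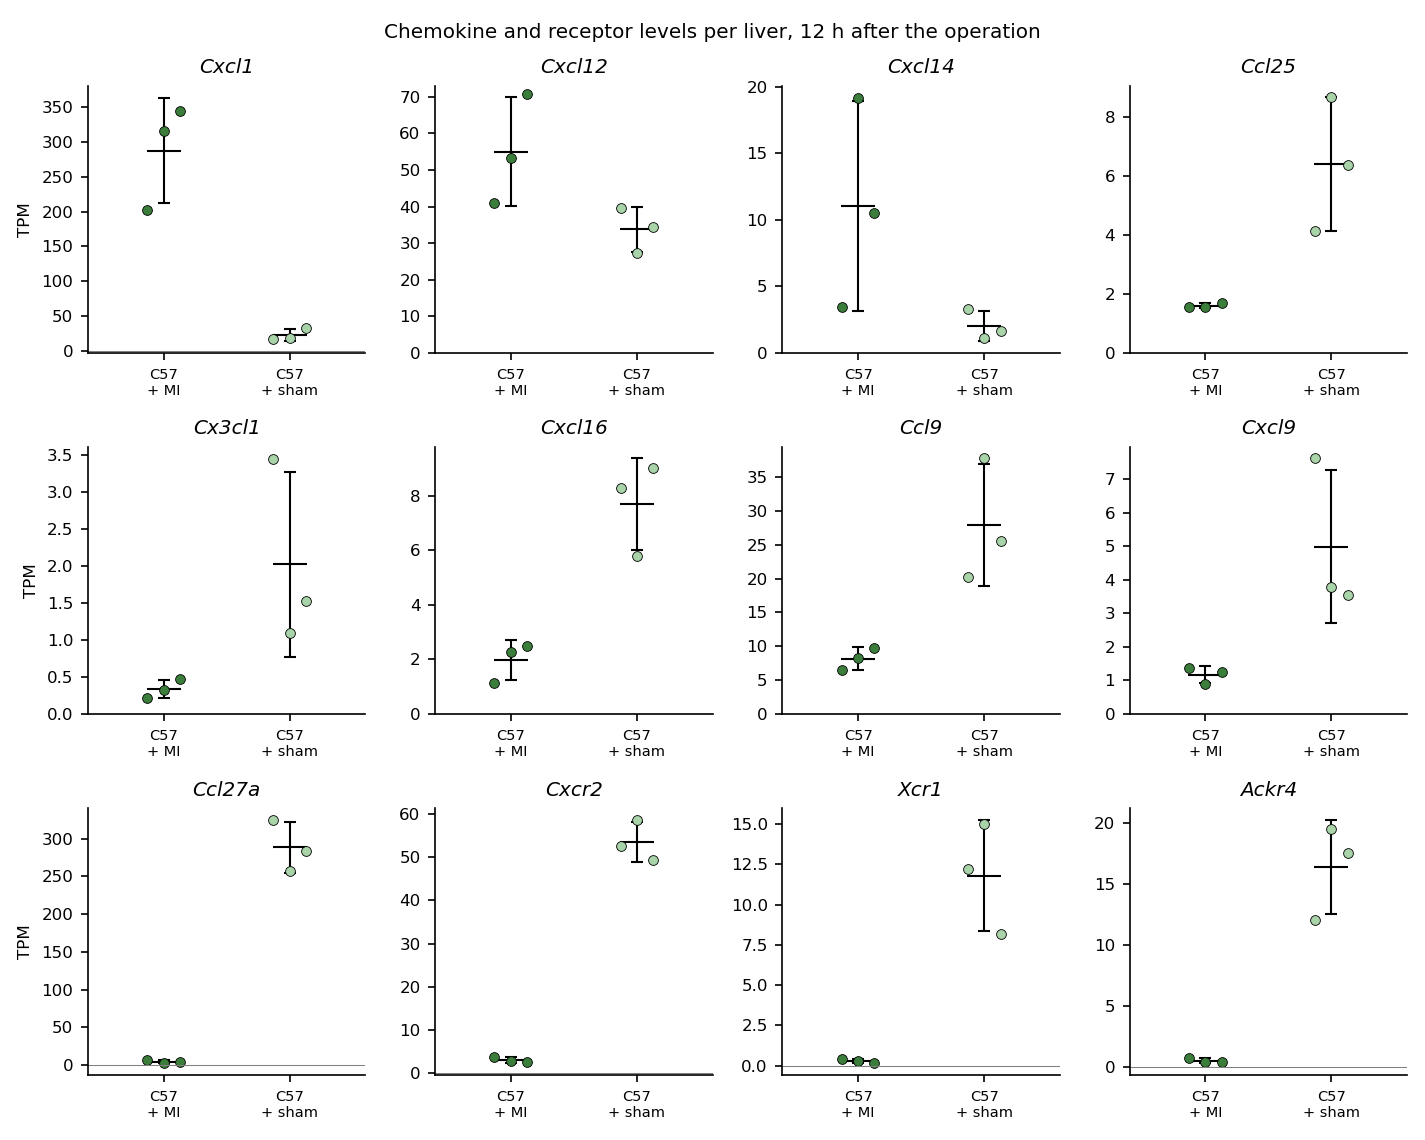
TPM of 12 members in each liver at 12 h (points), with the mean and SD of each group of 3 (lines), C57 + MI on the left and C57 + sham on the right. Cxcl1 is 202 to 344 TPM in C57 + MI livers and 18.0 to 32.8 TPM in C57 + sham livers, and the 4 panels of the bottom row show members whose counts were not whole and that are near 0 after MI.

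Of the 22 members tested at both times, Ccl9 was called lower after MI in C57 livers at 12 h and in LC livers at 1 day. Cxcl9 had all MI values below all sham values in both, and was called at 12 h alone. Cxcl1 was raised at 12 h and had a log2 fold change of -0.09 ± 0.47 in LC livers at 1 day. Cxcl14 had positive log2 fold changes in C57 (3.10 ± 0.72), LC (1.30 ± 0.63) and HMRKO livers (3.42 ± 0.68). Ccl27a and Ccl25 were lower in C57 livers at 12 h and in HMRKO livers at 1 day, and near 0 in LC livers (log2 fold changes -0.09 ± 0.34 and 0.07 ± 0.20). At 12 h the estimated counts of Ccl9, Cxcl9 and Ccl27a were not whole in at least 1 liver. The mice, the time and the processing differ between these experiments together, and the difference between times was not tested.

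**Figure D4:**
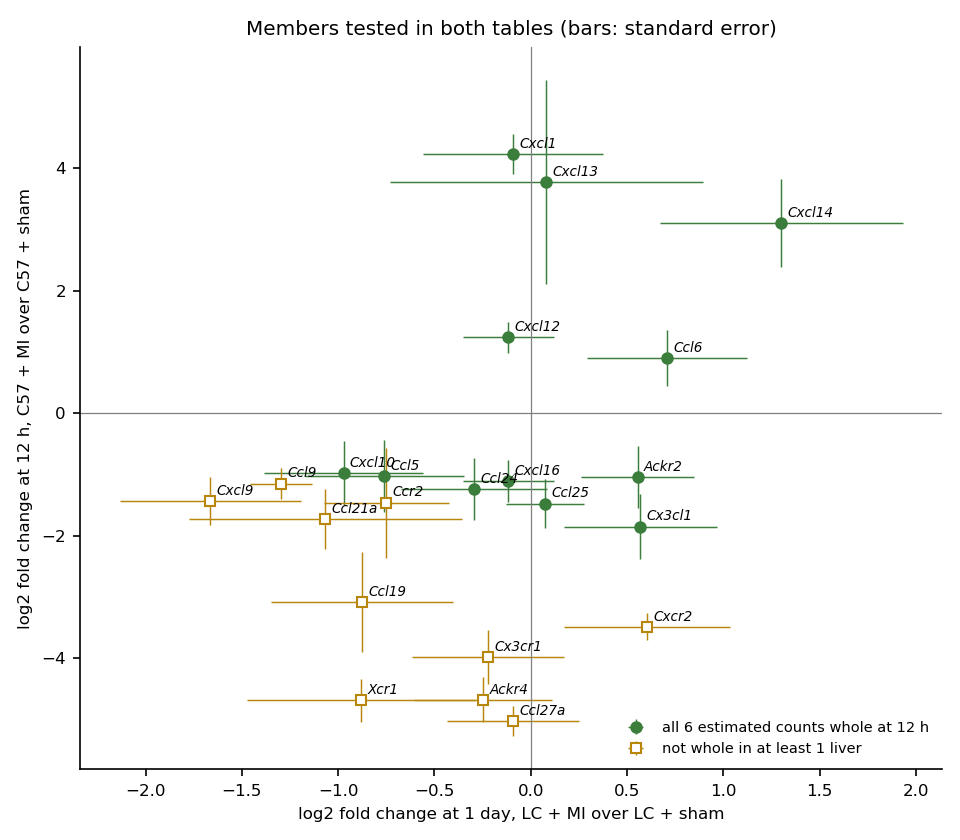
Log2 fold change of MI over sham at 12 h in C57 livers (vertical axis) against that at 1 day in LC livers (horizontal axis) for the 22 members tested in both, with bars for the standard error. Filled circles are the 12 members with whole estimated counts at 12 h and open squares the 10 others. Cxcl1 sits high at a 1 day value near 0, and the members lowest at 12 h are open squares.

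At 12 h 32 members did not pass the filter, with at most 61.5 estimated counts over the 6 livers. Among them were Cxcl2 (6, 17 and 5 counts in C57 + MI livers and 4, 0 and 11 in C57 + sham livers) and Ccl2 (7, 13 and 4 counts in C57 + MI livers and 5, 1 and 8 in C57 + sham livers), which were therefore not tested. The 6 tested members that were not called were Cxcl13, Ackr2, Ccl6, Cxcl10, Ccl5 and Ccr2. Cxcl13 was at 0.480, 36.5 and 2.45 TPM in C57 + MI livers and 1.72, 3.02 and 0 TPM in C57 + sham livers, with C57 + MI replicate 2 far above the rest (log2 fold change 3.78 ± 1.67, adjusted p = 0.0660, edgeR).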

How the data were processed

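Liver RNA was sequenced for the authors from TruSeq libraries on an Illumina instrument, 1 library per liver. The submitters' processing notes list the aligners HISAT2 2.1.0, Bowtie2 2.2.3 and TopHat2, the build mm9 and DESeq2, without roles. How reads were counted, with which annotation and strand, is not given in the sources used here. For the livers at 1 day the authors deposited raw counts per Ensembl gene. For the livers at 12 h the authors deposited estimated counts per Entrez gene, which need not be whole, with TPM, FPKM and group means. The FPKM values and the authors' means were not used.

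Estimated counts were rounded, and each table was fitted apart with edgeR 4.0.16 (R 4.3.3): filterByExpr by group (minimum count 10, minimum total 15), TMM scaling and the quasi-likelihood test, with 1 coefficient per group and Benjamini-Hochberg adjustment over the 14266 and 12548 genes tested. The 12 livers at 1 day shared 1 estimate of the spread. CPM used TMM-scaled library sizes. The 2-fold threshold follows the study's methods. Total counts were 19098704 to 28945526 at 1 day and 1361564 to 19190438 at 12 h, which sets the precision of low genes, and limits for counts of 0 (3 counts) cover counting error only. The labels do not state that livers came from separate mice, so p-values measure the spread between these samples, which may be technical. No 2 replicates held identical values or agreed within sampling noise.

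Alternatives were DESeq2 1.42.0, RLE scaling, other filters, only the groups compared, a replicate block, any fold change, leaving out each liver and, at 12 h, limma 3.58.1 on log2(TPM + 0.5) or log2(TPM + 0.1). Any fold change keeps the p-values and loosens the threshold, so it cannot end a call. At 1 day the livers left out include those outside the groups compared. Thinning the MI counts to the sham depth and fitting only genes with whole counts were added after seeing the data. The members and gene lists were chosen with earlier results of these data known. Members named with values were those called in any comparison and, where fewer than 6 were called, the 6 of smallest p, with their main receptors or ligands. From the other lists, up to 4 called genes of smallest p were named. The fit was tested on simulated counts. Promoter windows come from RefSeq (GRCm38.p6), which listed 45 of the 61 members. Motifs were searched on both strands in the 250 bases before each start. The results of 1 tested member are not reported here.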

Additional observations from a re-analysis of the deposited data

Results flagged for a closer look

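The effect of MI differed between HMRKO and LC livers at 1 day, by the test of the interaction, for Ccl27a (log2 difference -3.26), Cxcl11 (-2.25) and Ccl25 (-1.19).

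In Ackr2, every MI liver lay below every sham liver of HMRKO mice (log2 fold change -0.55) and above every sham liver of LC mice (0.55). The test of that difference is the interaction, which did not pass (adjusted p = 0.0915, edgeR).

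Between the 12 h livers of C57 mice (as TPM) and the 1 day livers of LC mice (as CPM), 3 members had all MI livers on opposite sides of all sham livers. These were 3 of the 22 members tested at both times. How many of all genes did so was not counted, and at 12 h 25.5% of all genes were called higher and 26.7% lower. Cxcr2 had a log2 fold change of -3.49 at 12 h and 0.60 at 1 day, Cx3cl1 of -1.85 at 12 h and 0.57 at 1 day, and Ackr2 of -1.04 at 12 h and 0.55 at 1 day. These 3 differences between times were not tested, and the mice, depth and counting differ between the tables.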

How the results depend on the processing

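Of 979 values of named members under an alternative, 894 kept their direction and their side of the threshold, 7 passed it newly, 77 no longer passed it and 1 reversed. The reversal was Ccl2 between the sham groups, at -0.31 without HMRKO + sham replicate 1 (adjusted p = 0.941, edgeR) and up to 1.83 without another liver. For LC + MI against LC + sham, 2 members were lower with DESeq2 and with no filter beyond 1 count, the second being Cxcl9, and 0 were higher with a mean count of at least 10, with only the groups compared and with the replicate block. With no filter beyond 1 count, 1 member (Ccl3) was higher in HMRKO + sham livers, set against LC + sham, and 3 had a positive interaction. At 12 h, 8 members were lower with the MI counts thinned to the sham depth, against 15. With only genes of whole counts 6 were lower, against 4 among the 12 members with whole counts in the main fit. The causes of these changes were not tested, and the last 2 settings hold fewer genes.

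Leaving out 1 liver at a time gave 0 to 1 members higher and 1 to 2 lower for LC + MI against LC + sham, 3 to 4 and 6 to 10 for HMRKO + MI against HMRKO + sham, 2 to 3 and 3 to 6 for HMRKO + MI against LC + MI, 0 to 1 and 0 to 0 for HMRKO + sham against LC + sham, 0 to 1 and 2 to 3 for the interaction, and 1 to 4 and 9 to 13 for C57 + MI against C57 + sham.

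Deviations from the group mean had correlations of -0.171 to 0.182 at 1 day and -0.0890 to 0.0236 at 12 h between same-numbered livers. Between livers of different number they were -0.227 to 0.179 at 1 day and -0.0729 to 0.117 at 12 h. With 3 livers per group these ranges cannot decide whether the numbers pair the livers. With the replicate block, Ccr1 in LC livers (log2 fold change 2.39, adjusted p = 0.0645), Ccl2 and Xcr1 in HMRKO livers (-1.79 and -1.81, adjusted p = 0.0749 and 0.0616) and Ccl24 at 12 h (-1.24, adjusted p = 0.0869, all edgeR) lost their calls. On the TPM scales the median of all genes at 12 h moved to -0.42 and -0.46, against 0.11 on the count scale. Depth limits the sham libraries at 12 h most, where members such as Cxcl14 rest on 3 to 6 counts.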
